A study of Mus musculus with 6 samples.

Results

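The mouse mitochondrial genome carries 37 genes, and every one of them was in the deposited table of 47729 genes. They were taken as all genes whose GENCODE M21 symbol starts with mt-, and comprised 13 mRNAs, 2 rRNAs and 22 tRNAs. The samples were left ventricular myocardium of mice taken 9 days after TAC, the surgical narrowing of the aorta (transverse aortic constriction), which makes the left ventricle pump against raised pressure. A group labelled control and a group labelled Treg had 3 libraries each, and the series title describes the Treg treatment as systemic transfer of regulatory T cells that were induced in vitro without CD28. The sources used here do not state what the control mice received, nor the strain, sex and age of the animals. All 6 libraries came from operated mice, and the labels do not state that each came from its own animal, so a p-value here reflects only how these libraries varied, which may be technical.

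Each mitochondrion holds copies of a small circular genome that encodes 13 proteins of the respiratory chain and ATP synthase, the 2 RNAs of the mitochondrial ribosome and the 22 tRNAs it uses. Both strands are transcribed into long RNAs, and most mRNAs and rRNAs are released when the tRNAs that lie between them are cut out. Cardiac muscle is rich in mitochondria, and most mitochondrial mRNAs carry poly(A) tails, so they are a large part of a poly(A)-selected heart library. Mature tRNAs are short and are not what such a library is made to capture. Counts on a tRNA gene can therefore include reads of longer RNAs that run into it, and the table does not separate the sources.

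Nuclear copies of mitochondrial DNA with counts of their own matched 7 mRNA genes on chromosome 1, and they are described first because the levels differ with and without them. Transcripts of 10 pseudogenes with a mean of at least 100 counts matched a mitochondrial transcript at 95% identity or more. Of these, 7 lie on the minus strand of chromosome 1 between 24611535 and 24616197 (GRCm38), in the same order as bases 6390 to 11042 of the mitochondrial genome. The positions of the matched bases on the 2 chromosomes add up to 24622578 for 5 of the pseudogenes and to 24622577 for those of mt-Nd4l and mt-Nd4, so the copy is collinear but for a shift of 1 base. Over the matched bases Gm28437 was 100% identical to mt-Co3, Gm28661 to mt-Co2, Gm10925 to mt-Atp6, Gm10222 to mt-Nd4l and Gm28439 to the first 876 bases of mt-Nd4. The first 60 bases of mt-Co3, encoding subunit 3 of cytochrome c oxidase, are the same in gene and copy, so 1 line serves for both. In mt-Nd3 and mt-Co1 a single base differed from the chromosome 1 copy, shown in capitals in windows of 60 bases. The substitutions are T3C in mt-Nd3 and A1066T in mt-Co1, with positions counted from 1 at the 5′ end of the gene and the mitochondrial base first. A copy on chromosome 2, Gm13340, matched less closely and differed from mt-Co1 at 37 of 1545 bases, 3 of them in the first 120 (C54A, A60G and G87A).
mt-Co3 and Gm28437: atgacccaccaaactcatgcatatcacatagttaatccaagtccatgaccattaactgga
mt-Nd3: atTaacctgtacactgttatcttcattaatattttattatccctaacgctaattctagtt
Gm28438: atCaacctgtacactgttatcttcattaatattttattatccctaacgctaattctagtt
mt-Co1, bases 1063 to 1122: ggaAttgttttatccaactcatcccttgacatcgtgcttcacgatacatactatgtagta
Gm29216: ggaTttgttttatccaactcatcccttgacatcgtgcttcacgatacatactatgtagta
mt-Co1, bases 1 to 120: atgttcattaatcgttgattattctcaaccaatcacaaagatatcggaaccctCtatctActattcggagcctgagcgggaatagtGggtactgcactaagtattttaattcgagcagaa
Gm13340: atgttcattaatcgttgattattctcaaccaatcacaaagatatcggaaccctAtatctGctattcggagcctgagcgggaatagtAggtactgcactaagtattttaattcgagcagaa

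Counts on a copy were compared with those on its gene. Gm28437 held 1.016 to 1.0226 counts for each count on mt-Co3 over the 6 libraries, and Gm28661 held 0.9965 to 1.0232 for each on mt-Co2. For mt-Co1, of which only 483 of 1545 bases are matched on chromosome 1, the ratio was 0.1809 to 0.1888. Equal division of the shared reads with even coverage would give 0.997, 0.991 and 0.185 for these 3 genes. For mt-Nd4 the ratio was 0.3993 to 0.4165, against 0.466 by that arithmetic, and for mt-Atp6 it was 1.2125 to 1.2224, against 0.991, so both departed from it. How reads that fit both places were counted is not stated in the sources used here, and the source of the counts on the copies was not tested. The less similar chromosome 2 copies held less, at 0.0116 to 0.0138 counts per count on mt-Co1 for Gm13340. The 10 pseudogenes together held 6.37% to 7.30% of each library's count. In the Treg comparison, 1 of the 10 did not overlap between groups, beside 25.4% of all tested genes. This was Gm13339, the chromosome 2 copy of part of mt-Nd2, at 84.3 ± 15.0 CPM (counts per 1000000, scaled by TMM factors; mean ± SD, n = 3 in each group, as throughout) in the control libraries. Its Treg libraries averaged 51.1 ± 15.8 CPM (edgeR adjusted p = 0.237). Also within the copied stretch lie mt-Atp8 and 5 tRNAs (mt-Ts1, mt-Td, mt-Tk, mt-Tg and mt-Tr), for which no row matched on chromosome 1 over at least 50 bases. The last 43 bases of mt-Atp8 are shared with mt-Atp6 and so do lie in its copy Gm10925. Whether reads of these 6 genes were also shared with the nuclear stretch was not tested.

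With the counts of the copies added to the gene they match, mitochondrial mRNAs made up 26.5% to 30.4% of each library, against 20.1% to 23.1% as deposited. The deposited share was 21.07%, 20.36% and 22.01% in the control libraries and 22.66%, 23.11% and 20.13% in the Treg libraries. Both the highest and the lowest share were in the Treg group, and the groups overlapped. The group means were 21.15% ± 0.825 in control and 21.97% ± 1.61 in Treg, a difference of 0.82 percentage points. It was 0.25 without Treg replicate 2 and 1.74 without Treg replicate 3. A change in this share can come from fewer cells of a type as well as from less RNA per cell, and in bulk tissue these cannot be told apart.

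Levels of different genes are compared per length, as CPM per kb with the copies added. The order was led by mt-Co1, the catalytic subunit of cytochrome c oxidase, at 58870 ± 8180 CPM per kb (SD over all 6 libraries). Next came mt-Atp6, the membrane subunit of ATP synthase through which protons pass, at 42190 ± 4170, mt-Co2 at 37830 ± 4670 and mt-Co3 at 33150 ± 4350. The ranges of neighbours within these 3 overlapped, while mt-Co1 lay above mt-Atp6 and mt-Co3 above mt-Cytb in every library. A middle group ran from mt-Cytb, the core of complex III, at 22420 ± 1790, through mt-Nd1 (19940 ± 1840), mt-Atp8 (17700 ± 1900), mt-Nd4 (16920 ± 1400) and mt-Nd4l (15080 ± 1310) to mt-Nd2 (13330 ± 1310), each overlapping its neighbour. Lowest were mt-Nd5 (8487 ± 1060), mt-Nd6 (8409 ± 1320) and mt-Nd3 (6835 ± 460.0), subunits of complex I. Without the copies mt-Atp6, mt-Co2 and mt-Co3 stood at 19020 ± 1860, 18500 ± 2340 and 16410 ± 2170 CPM per kb. Their means lay below those of mt-Cytb and mt-Nd1, but for mt-Atp6 and mt-Co2 the distance to mt-Nd1 was smaller than these SDs. By its mean mt-Nd4 stood at 12020, below mt-Nd2 (13270), and mt-Nd4l at 7454, below mt-Nd5 and mt-Nd6. mt-Nd3 remained lowest at 3339. This order is of means, and single libraries need not follow it. The order of these genes therefore depends on whether the copies are added. mt-Atp8 lies within the copied stretch but had no counts of a copy added, so its place in this order is uncertain. The place of mt-Nd6, encoded on the other strand, is also uncertain, because the sources do not state whether counting used strand.

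**Figure D1:**
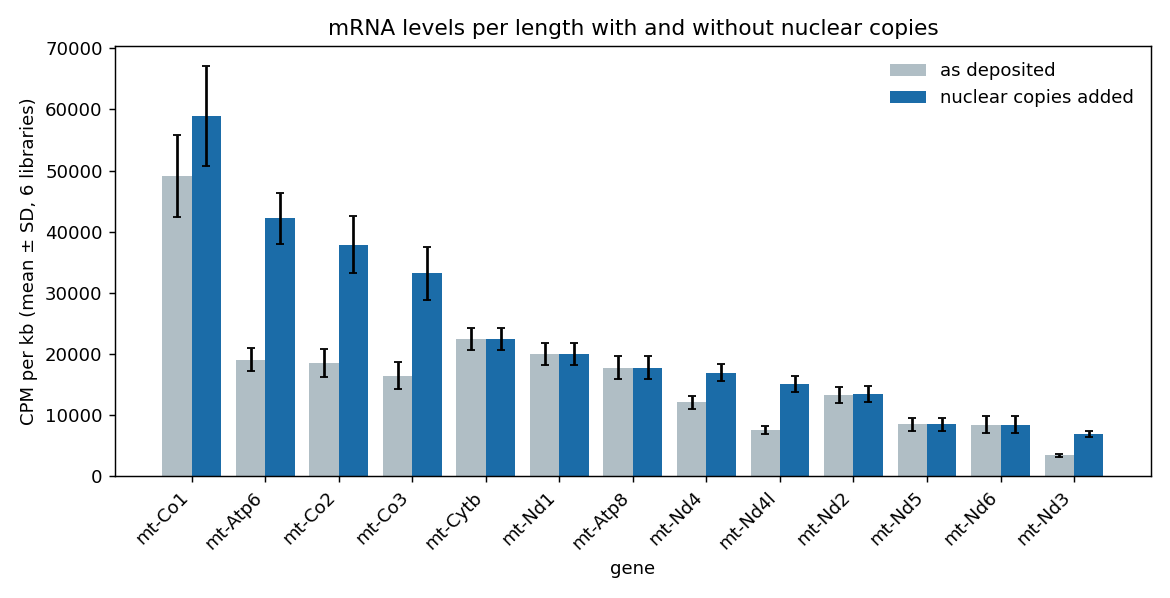
Level per length (CPM per kb, mean ± SD over 6 libraries) of the 13 mitochondrial mRNAs, as deposited and with nuclear copies added. Adding the copies raised mt-Atp6 by 2.22-fold and mt-Co3 by 2.02-fold and left mt-Cytb, which has no such copy, at 22420.

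The comparison of Treg with control asks what the transfer of these cells does to the pressure-loaded heart. For the mitochondrial mRNAs the differences were small. Log2 fold changes lay between −0.17 and 0.22, with a median of 0.03 beside −0.02 over all 17365 genes tested, and standard errors of 0.15 to 0.20. By edgeR's quasi-likelihood test 0 of 13 passed an adjusted p of 0.05 (the same holds for 0% of all tested genes) and 0 of 13 had an unadjusted p under 0.05 (16.5% of all tested genes). DESeq2 called 0 of 13, and 3.71% of all tested genes. In CPM the groups overlapped for every mRNA, where 25.4% of all tested genes did not overlap. All 37 members passed the filter on low counts.

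Among the 7 subunits of complex I, the entry point of electrons from NADH, fold changes on the log2 scale were −0.03 for mt-Nd1, 0.03 for mt-Nd2, 0.06 for mt-Nd3, 0.05 for mt-Nd4 and 0.05 for mt-Nd4l. mt-Nd1 stood at 18468, 18991 and 20479 CPM in the control libraries and 19912, 20704 and 15946 in the Treg libraries. The other 4 showed the same interleaving, with control and Treg libraries at 12282 to 15390 and 12346 to 15020 CPM for mt-Nd2, and at 15187 to 17715 and 14803 to 18102 CPM for mt-Nd4. The most negative value of the 13 was that of mt-Nd6, the only mRNA encoded on the opposite strand. It stood at 4621, 3839 and 5404 CPM in the control libraries and 4341, 4556 and 3424 in the Treg libraries, a log2 fold change of −0.17 ± 0.20 (SE; edgeR adjusted p = 0.67). Control replicate 3 was highest and Treg replicate 3 lowest. The neighbouring mt-Nd5, whose end overlaps that of mt-Nd6 by 14 bases, stood at 15838, 14255 and 18616 CPM against 14973, 16235 and 12965 (−0.14 ± 0.18, edgeR adjusted p = 0.701), with the same libraries at the extremes. The library kit keeps strand, but the sources used here do not state whether counting used it. If it did not, RNA of the other strand could be counted along the whole of mt-Nd6, not only in the overlap. mt-Nd6 held 0.264 to 0.292 counts for each count on mt-Nd5 over all libraries. Its level and log2 fold change may therefore not be separate from those of mt-Nd5.

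In complex IV, cytochrome c oxidase, where electrons reach oxygen, all 3 mitochondrial subunits had log2 fold changes above 0. For mt-Co3, which had the largest value among the mRNAs, the control libraries stood at 12664, 12072 and 10882 CPM and the Treg libraries at 13888, 15696 and 11982. Treg replicates 1 and 2 lay above all controls and Treg replicate 3 did not, and the log2 fold change was 0.22 ± 0.17 (edgeR adjusted p = 0.526). For mt-Co1 the control libraries stood at 77935, 68686 and 69794 CPM and the Treg libraries at 76529, 95265 and 67260. Its highest and lowest values were both in Treg libraries, and the log2 fold change was 0.14 ± 0.19. mt-Co2, at 13242, 12311 and 10579 CPM against 13633, 14910 and 11230, also overlapped (0.14 ± 0.18).

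mt-Cytb stood at 26619, 24169 and 26187 CPM in the control libraries and 27062, 27595 and 22234 in the Treg libraries. The group means were 25658 ± 1308 and 25630 ± 2954 CPM, and the log2 fold change was −0.0016 ± 0.17. The ATP synthase subunits mt-Atp8 and mt-Atp6, whose genes overlap by 43 bases, had −0.12 ± 0.17 and −0.04 ± 0.17. mt-Atp8 ran from 3559 to 4081 CPM in control libraries and from 2935 to 3863 in Treg libraries, and mt-Atp6 from 12349 to 13847 and from 10709 to 14217.

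**Figure D2:**
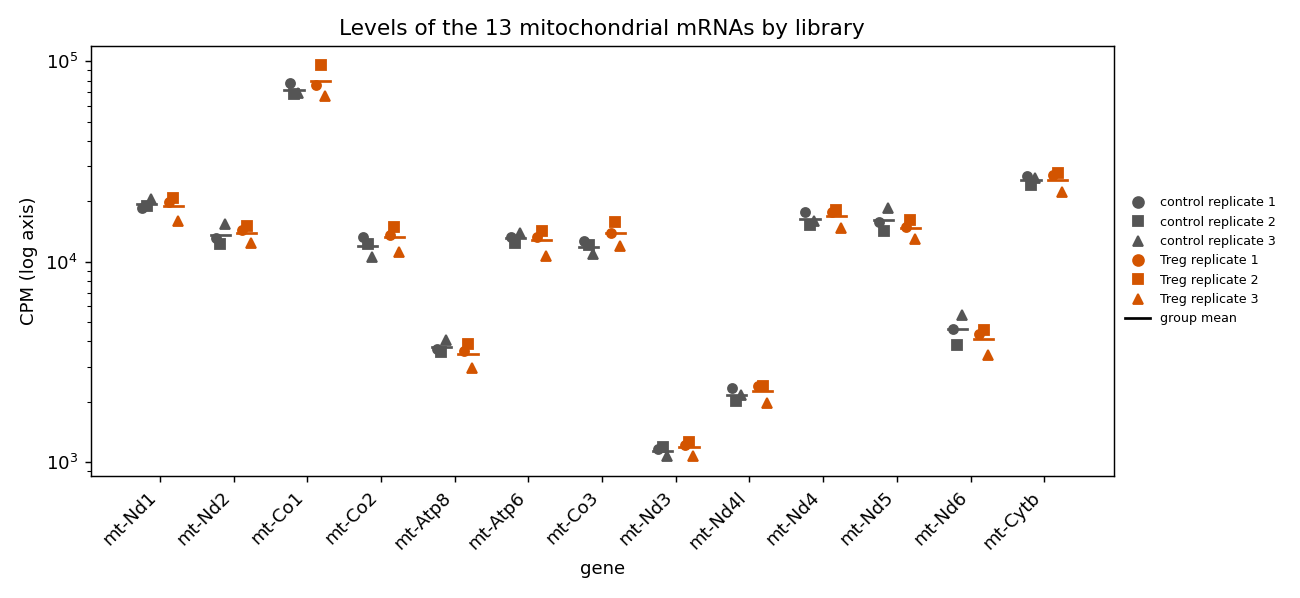
CPM (log axis) of the 13 mitochondrial mRNAs in each library, with group means as bars and genes in genome order. The groups overlap for each gene; mt-Co1 is between 67260 and 95265 CPM, and Treg replicate 3 is the lowest library for 9 of the 13.

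In the Treg group, 2 libraries lay to one side for all mRNAs. Treg replicate 2 was the highest library for 8 of 13 mRNAs and Treg replicate 3 the lowest for 9 of 13. Deviations from the 6-library mean ran from 0.08 to 0.34 on the log2 scale in Treg replicate 2 and from −0.34 to −0.09 in Treg replicate 3. In the other 4 libraries they fell on both sides of 0, and control replicate 3 was the highest for 4 mRNAs and the lowest for 3. Among the 4 atrial markers, Myl7 stood at 37.7 CPM in Treg replicate 3 and at most 0.216 elsewhere, Sln at 12.5 and at most 0.108, and Myl4 at 68.5 and at most 4.67. Nppa, which the loaded ventricle also expresses, was highest in control replicate 1 (1432 CPM) and at 898.9 in Treg replicate 3, and it made up most of the summed level of the 4 (1437 and 1018 CPM in these libraries, 229.2 to 804.7 in the others). The part of this in the mRNA levels was not tested.

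The make-up of the mRNA pool does not depend on library scaling, so each mRNA was also taken as a share of the 13, as deposited. mt-Co1 made up 34.02% ± 1.38 of the pool in control and 36.02% ± 1.94 in Treg. mt-Co3 held 5.74%, 6.01% and 5.08% in the control libraries and 6.23%, 6.28% and 6.34% in the Treg libraries, so that every Treg library lay above every control. mt-Nd5 held 7.18%, 7.10% and 8.69% against 6.71%, 6.50% and 6.86%, and every Treg library lay below every control. The shares of mt-Atp8 (1.78% ± 0.123 and 1.57% ± 0.0299) and mt-Atp6 (6.20% ± 0.232 and 5.78% ± 0.176) were also lower in all Treg libraries. These 4 of 13 shares did not overlap, the same number as with the copies added, beside 25.4% of all tested genes on the CPM scale. The genes mt-Atp8 and mt-Atp6 overlap by 43 bases, so they may not count as separate members. The shares are bound to each other by their sum and no test was made on them.

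Both rRNAs had higher means in the Treg group, with wide spread. mt-Rnr1, the 12S RNA of the small ribosomal subunit (mitochondrial bases 70 to 1024, plus strand), stood at 1186, 570.6 and 304.9 CPM in the control libraries and 1181, 2323 and 1221 in the Treg libraries. Control replicate 1 lay level with Treg replicate 1, control replicate 3 was lowest and Treg replicate 2 highest. The group values were 687 ± 452 and 1575 ± 648, a log2 fold change of 1.20 ± 0.50 (edgeR unadjusted p = 0.0461, adjusted p = 0.295). mt-Rnr2, the 16S RNA of the large subunit (bases 1094 to 2675, plus strand), stood at 3098, 1824 and 2967 CPM against 3115, 5661 and 3583. Here the groups did not overlap, by the small distance between control replicate 1 and Treg replicate 1, and the log2 fold change was 0.65 ± 0.30 (edgeR adjusted p = 0.325). Without Treg replicate 2 the values were 0.80 for mt-Rnr1 and 0.35 for mt-Rnr2, and without control replicate 1 mt-Rnr1 had 1.85. Treg replicate 2 also had the highest summed level of the 9 cardiomyocyte markers, 61300 CPM against 36820 (control replicate 3) to 54470 in the others; the part of this in the rRNA levels was not tested.

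Ratios within a library need no scaling. Because the libraries were poly(A)-selected, counts on rRNAs and these ratios need not follow the amounts in the tissue. Both rRNAs together held 1.94, 1.19 and 1.53 counts per 100 counts on the 13 mRNAs in the control libraries and 1.93, 3.20 and 2.54 in the Treg libraries. These ranges overlapped through control replicate 1. The 2 rRNAs did not move in step in control replicate 3: its ratio of mt-Rnr1 to mt-Rnr2 counts was 0.103, while the other 5 libraries lay between 0.313 and 0.410. In that library mt-Rnr1 had 9059 counts and mt-Rnr2 had 88142.

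The tRNAs varied more than the mRNAs. The spread over 6 libraries had a median SD of 0.478 on the log2 scale for the 22 tRNAs and 0.148 for the mRNAs, and it was widest, at 0.773, for the 2 rRNAs. Single tRNAs ran from 0.087 (mt-Tg) to 1.328 (mt-Tq). Of 22 tRNAs, 0 passed an adjusted p of 0.05 by edgeR, 7 were higher and 2 lower at an unadjusted p under 0.05 (8.23% and 8.31% of all tested genes), and 5 were higher and 2 lower with no overlap (13.7% and 11.7% of all tested genes). Over all 37 members, 10 had an unadjusted p under 0.05 (27.0%, beside 16.5% of all tested genes) and 8 did not overlap (21.6%, beside 25.4%). Reads of 101 bp are longer than a tRNA gene and can run into its neighbour, so adjoining tRNAs may not count as separate members. The tRNA median was 0.40 on the log2 scale, 0.10 without Treg replicate 2 and 0.19 without control replicate 2. Treg replicate 2 was the highest for 15 of 22 tRNAs, and control replicate 2 was the lowest for 11.

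The sequences of the 7 tRNAs whose groups did not overlap follow, with that of mt-Th beside its neighbours and the anticodon in capitals; they were chosen after their values were seen. mt-Tf, for phenylalanine, precedes the rRNAs (chrM:1-68, plus strand). Between mt-Nd1 and mt-Nd2 lie mt-Ti for isoleucine (chrM:3706-3774, plus), mt-Tq for glutamine (chrM:3772-3842, minus) and mt-Tm for methionine (chrM:3845-3913, plus). Between mt-Nd4 and mt-Nd5 lie mt-Th for histidine (chrM:11546-11612), mt-Ts2 for serine (chrM:11613-11671) and mt-Tl2 for leucine (chrM:11671-11741), all on the plus strand. mt-Tr, for arginine (chrM:9808-9875, plus), lies between mt-Nd3 and mt-Nd4l. All are GENCODE M21 transcripts on GRCm38.
mt-Tf: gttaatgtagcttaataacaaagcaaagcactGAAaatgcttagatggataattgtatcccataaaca
mt-Ti: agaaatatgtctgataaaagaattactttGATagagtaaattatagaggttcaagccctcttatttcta
mt-Tq: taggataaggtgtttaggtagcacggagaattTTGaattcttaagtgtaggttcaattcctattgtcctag
mt-Tm: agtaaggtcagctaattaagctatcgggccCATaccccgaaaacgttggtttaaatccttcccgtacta
mt-Tr: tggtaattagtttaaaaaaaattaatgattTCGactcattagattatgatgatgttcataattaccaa
mt-Th: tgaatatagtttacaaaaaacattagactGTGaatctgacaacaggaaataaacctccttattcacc
mt-Ts2: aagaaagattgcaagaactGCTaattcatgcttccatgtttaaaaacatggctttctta
mt-Tl2: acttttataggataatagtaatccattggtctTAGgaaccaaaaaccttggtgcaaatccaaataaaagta

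In the cluster after mt-Nd1, all 3 tRNAs were higher in every Treg library than in any control. mt-Ti stood at 34.4, 23.7 and 16.3 CPM in the control libraries and 55.7, 89.2 and 59.8 in the Treg libraries, a log2 fold change of 1.46 ± 0.30 (edgeR adjusted p = 0.135, the smallest of the 37). mt-Tq stood at 43.0, 38.4 and 7.24 CPM against 83.4, 92.1 and 70.8, a log2 fold change of 1.47 ± 0.55 (edgeR adjusted p = 0.272). Control replicate 3 was far below the other controls, which in turn lay below all Treg libraries. mt-Tm stood at 62.0, 63.4 and 12.6 CPM against 122.7, 130.4 and 104.1, a log2 fold change of 1.37 ± 0.52 (edgeR adjusted p = 0.276). It repeated the pattern of mt-Tq, its neighbour on the other strand. Relative to mt-Nd2, which follows the cluster and differed little between groups, mt-Tm held 4.71, 5.16 and 0.821 counts per 1000 in control and 8.50, 8.68 and 8.43 in Treg.

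Calls of tRNAs depended on the tool and on control replicate 3. DESeq2 called mt-Ti (adjusted p = 0.000582) and mt-Tr (adjusted p = 0.0443), 2 of 22 tRNAs, beside the 3.71% of all tested genes. Without control replicate 3, edgeR called mt-Tq and mt-Tm (adjusted p = 0.0293 and 0.0299, log2 fold changes of 1.01 and 0.93) where 1.30% of all tested genes were called, and mt-Ti had an edgeR adjusted p of 0.0861. Over all 16 alternatives adjusted p-values ran from 0.000582 to 0.496 for mt-Ti, 0.0293 to 0.609 for mt-Tq, 0.0299 to 0.611 for mt-Tm and 0.0443 to 0.496 for mt-Tr. Control replicate 3 also stood apart in other genes: its erythroid markers had a median deviation of −2.025 and its neutrophil markers of 1.5 on the log2 scale. The part of these cells in the tRNA values was not tested.

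The cluster before mt-Nd5 lay the other way. mt-Ts2 stood at 7.58, 13.9 and 13.3 CPM in the control libraries and 7.39, 6.45 and 6.25 in the Treg libraries, a log2 fold change of −0.79 ± 0.25 (edgeR adjusted p = 0.225). mt-Tl2 stood at 7.93, 13.4 and 14.2 CPM against 7.55, 7.18 and 6.44, a log2 fold change of −0.75 ± 0.24 (edgeR adjusted p = 0.229). mt-Th stood at 10.2, 17.9 and 14.5 CPM against 11.6, 9.56 and 8.95, a log2 fold change of −0.50 ± 0.23 (edgeR adjusted p = 0.323). For all 3, control replicate 1 lay close to the Treg libraries and control replicates 2 and 3 above them. As counts per 1000 on mt-Nd5, which follows this cluster, mt-Ts2 was at 0.478, 0.973 and 0.714 in control and 0.493, 0.397 and 0.483 in Treg, so on this scale the groups overlapped.

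mt-Tf was the scarcest member per length, at 10.5 to 68 counts per library. It stood at 0.737, 0.397 and 0.370 CPM in the control libraries and 0.857, 2.45 and 1.19 in the Treg libraries, a log2 fold change of 1.57 ± 0.48 (edgeR adjusted p = 0.219). mt-Tr stood at 6.91, 5.99 and 7.67 CPM against 9.04, 21.2 and 12.4, a log2 fold change of 1.05 ± 0.31 (edgeR adjusted p = 0.215). The 3 controls lay close together and the Treg libraries spread upward from them. Without Treg replicate 2 the log2 fold change was 0.65 for mt-Tr and 1.03 for mt-Tf.

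A pair of other tRNAs were set against an adjoining mRNA, and the ratio was near constant for mt-Ts1 and ranged more widely for mt-Te. mt-Ts1, encoded on the other strand directly after mt-Co1, held 14.7 to 15.5 counts per 1000 on mt-Co1 in all 6 libraries, and had the highest level of any tRNA, 16670 ± 2530 CPM per kb. mt-Te, next to mt-Nd6, held 80.2 to 97.4 counts per 1000 on mt-Nd6. Their log2 fold changes were 0.16 ± 0.18 and −0.07 ± 0.18. Reads of mt-Ts1 and of longer mt-Co1 RNA cannot be told apart if counting ignored strand. The 4 tRNAs of the minus strand between mt-Nd2 and mt-Co1, mt-Ta, mt-Tn, mt-Tc and mt-Ty, had 0.39 to 0.68 and overlapped between groups, and mt-Ty had an unadjusted p of 0.0414 by edgeR (adjusted p = 0.29). mt-Td, with 0.52 ± 0.22 (edgeR unadjusted p = 0.047), also overlapped. Among the remaining 7, mt-Tv had 0.96, mt-Tw 0.41, mt-Tp 0.20, mt-Tg 0.06, mt-Tl1 −0.13, mt-Tk −0.13 and mt-Tt −0.55, with edgeR adjusted p-values between 0.41 and 0.904. mt-Tt and mt-Tk were highest in control replicate 3, at 10.9 and 6.53 CPM against 2.60 to 5.34 and 2.00 to 4.18 elsewhere. Without that library their log2 fold changes turned to 0.45 and 0.60, and that of mt-Tl1 to 0.28. mt-Tv had 1.91 without control replicate 3 (edgeR adjusted p = 0.0543) and 0.63 without control replicate 2 or Treg replicate 2. mt-Tw had 0.67 without control replicate 3 and 0.21 without control replicate 2. mt-Tp had 0.0018 without Treg replicate 2. Without that library mt-Ta, mt-Tn and mt-Tc had 0.12, 0.09 and 0.18, mt-Ty 0.43 and mt-Td 0.31.

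**Figure D3:**
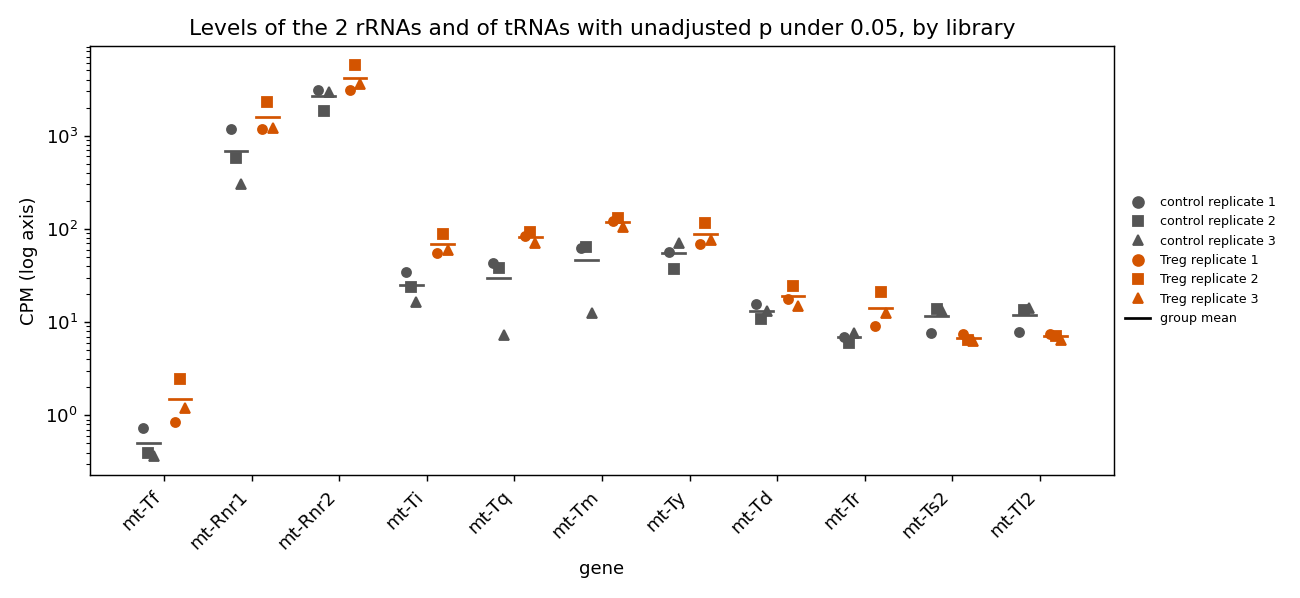
CPM (log axis) in each library of the 2 rRNAs and of the 9 tRNAs with an edgeR unadjusted p under 0.05, with group means as bars. mt-Ti, mt-Tq and mt-Tm are above every control in all Treg libraries, and control replicate 3 is at 7.24 CPM for mt-Tq.

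**Figure D4:**
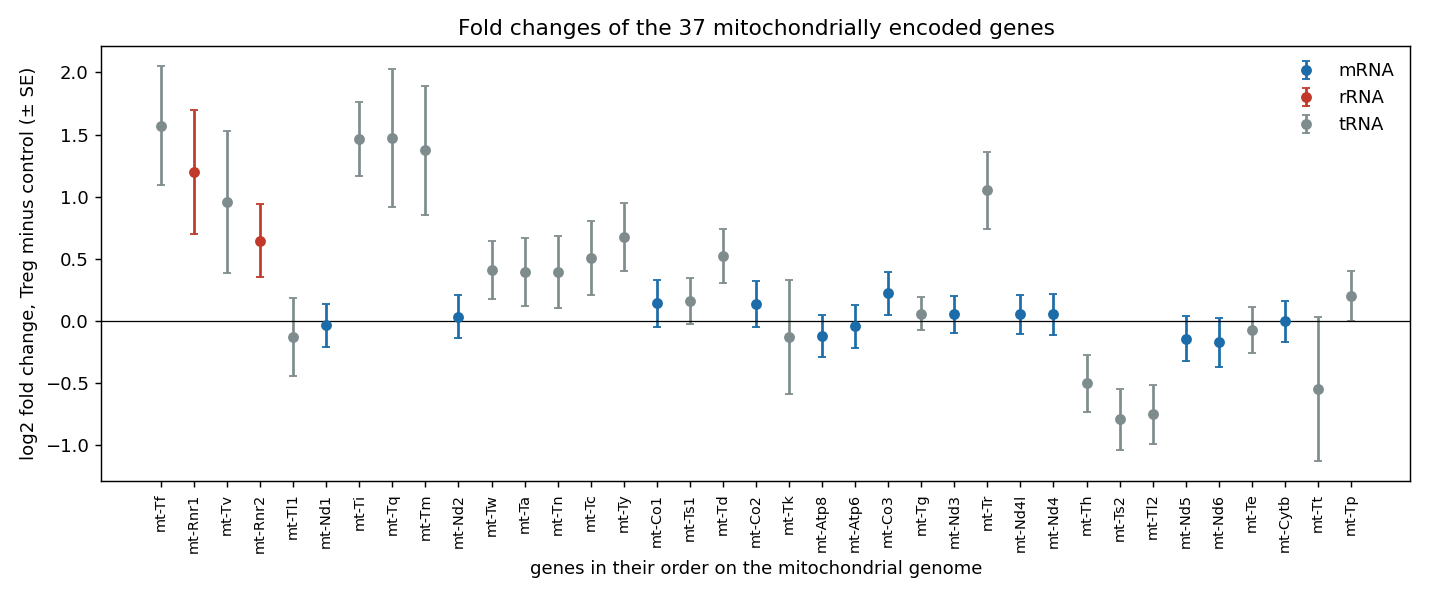
Log2 fold change, Treg minus control (± SE), of the 37 genes in their order on the mitochondrial genome, by class. The mRNAs lie within −0.17 to 0.22, while tRNAs run from −0.79 to 1.57 and 0 of 37 passed an adjusted p of 0.05.

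**Figure D5:**
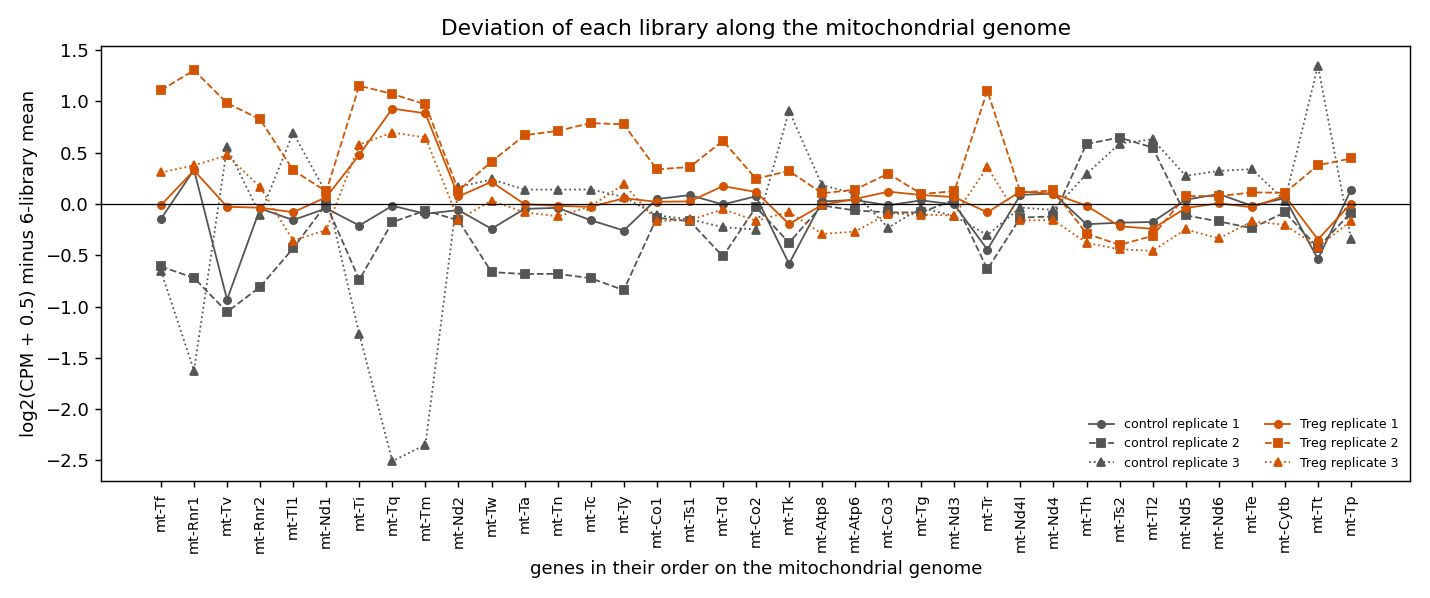
Deviation of each library from the 6-library mean of log2(CPM + 0.5) for the 37 genes in genome order, with lines joining the values of a library. Control replicate 3 drops to −2.51 at mt-Tq while staying within −0.25 to 0.32 at the mRNAs, and Treg replicate 2 is highest at both rRNAs.

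Nuclear genes that serve the same genome were read from 10 lists. In none of them did a member pass an adjusted p of 0.05 by edgeR, as for 0% of all tested genes, so the counts below are at an unadjusted p under 0.05, where 8.23% of all genes were higher and 8.31% lower. Of 18 genes for mitochondrial transcription and its activators, 2 were higher and 0 lower, with a median log2 fold change of 0.16. Ppargc1a, the coactivator PGC-1α that drives mitochondrial biogenesis, had means of 61.3 ± 7.46 and 104.5 ± 34.3 CPM in control and Treg libraries (0.77 ± 0.23, edgeR adjusted p = 0.218). Tfb2m, a transcription factor that works with the mitochondrial RNA polymerase, had 0.32. Of 13 genes of mitochondrial DNA maintenance, 6 were higher and 0 lower, with a median of 0.33. Polg, the mitochondrial DNA polymerase, had means of 36.9 ± 5.43 and 55.7 ± 3.47 CPM (0.59 ± 0.14, edgeR adjusted p = 0.165), and Twnk, the replicative helicase, at 14.3 ± 2.39 and 22.9 ± 3.17 CPM (0.67 ± 0.18). Genes named from each list are those with the smallest edgeR p in their direction, so their separation follows in part from that choice. For Polg and Twnk, every Treg library lay above every control. Over this list, 8 of 13 genes were higher with no overlap, beside 13.7% of all tested genes.

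Of 32 genes of mitochondrial RNA processing, modification and stability, 5 were higher and 1 lower (median 0.10). Fastk stood at 106.9 ± 3.57 and 144.8 ± 11.2 CPM (0.44 ± 0.12), Mto1, a tRNA-modifying enzyme, had 0.56, and Nsun3, a tRNA methyltransferase, was at 8.45 ± 0.633 and 5.57 ± 0.705 CPM (−0.60 ± 0.17, edgeR adjusted p = 0.198). Of 16 translation factors 3 were higher and 0 lower (median 0.26), among them the ribosome recycling factor Mrrf with 0.49 and Mtrf1l with 0.47. Of 22 tRNA synthetase genes 3 were higher and 1 lower (median 0.15). Vars2, which charges valine tRNA, had 0.65 and Hars2, for histidine, 0.42, while Gars, which serves cytosol and mitochondria, stood at 77.9 ± 2.62 and 57.9 ± 2.00 CPM (−0.43 ± 0.11).

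Nuclear genes of the same complexes follow. Of 36 complex I genes, 0 had an unadjusted p under 0.05 by edgeR (16.5% of all tested genes) and the median log2 fold change was 0.12. The same count was 0 of 4 for complex II, which has no mitochondrial subunit (median 0.13), 0 of 9 for complex III (0.04) and 0 of 18 for ATP synthase (0.02). In complex IV, 4 of 15 were higher and 1 lower, and the values ran from −0.65 to 0.73 (median 0.03). Cox7a1 and Cox8b, muscle forms of oxidase subunits, had means of 149.9 ± 21.9 and 249.3 ± 47.5 CPM (0.73 ± 0.19, edgeR adjusted p = 0.176) and of 214.5 ± 29.4 and 299.3 ± 51.5 CPM (0.48 ± 0.18). Cox6a1, the form found in non-muscle tissue, stood at 66.3 ± 15.8 and 42.1 ± 1.76 CPM (−0.65 ± 0.18, edgeR adjusted p = 0.194).

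Estimated counts summed to 28937253 to 29979080 per library, so the depth was even. Markers of heart muscle were high in every library. The summed level of 9 cardiomyocyte genes was 36820 to 54470 CPM in control and 45270 to 61300 in Treg, all above 0 in every library. Summed levels of other cell types' markers were 2412 to 3466 CPM in control and 1894 to 3215 in Treg for 6 fibroblast genes, 430.5 to 634.1 and 495.2 to 602 for 5 endothelial genes, 600.9 to 715.6 and 670.4 to 766.4 for 5 smooth muscle and pericyte genes and 160.2 to 258 and 180.3 to 255.6 for 5 macrophage genes. They were 291.7 to 2849 and 1073 to 1918 for 5 erythroid genes, 6.60 to 35.5 and 7.85 to 18.04 for 5 neutrophil genes, 3.11 to 17.7 and 2.67 to 3.49 for 5 T cell genes, 229.2 to 1437 and 581.9 to 1018 for 4 atrial genes and 233.3 to 272.8 and 288.9 to 387.1 for 5 brown fat genes, a list that shares Cox8b with complex IV and whose summed level is mostly Cox8b (214.5 and 299.3 CPM on average). The highest T cell sum, in control replicate 3, was mostly Cd3e, at 15.65 CPM there and 0.396 to 2.88 in the other libraries. No other T cell gene was above 1.72 CPM in control replicate 3. Of defining markers, Ucp1 of brown fat was at 0 in control replicate 2 and in all Treg libraries, Adipoq in all control libraries, Cd3d in Treg replicates 2 and 3, and Trac and the atrial gene Sln in control replicate 3. The part of these cell types in the mitochondrial values was not tested.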

How the data were processed

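RNA of left ventricular tissue from 6 libraries (3 control, 3 Treg) was sequenced as paired reads of 101 bp from poly(A)-selected stranded libraries, per the labels' protocols. The authors deposited estimated counts per Ensembl gene, not normalized; 46.5% to 50.0% of values above 0 are fractional. The submitters' processing notes name GRCm38 and the tools featureCounts 2.0.6, HISAT2 2.1.0, Trimmomatic 0.39 and Cuffdiff 2.2.1; the sources used here state neither their roles nor how reads were counted, and name no annotation release. The table has 6 columns of values that match no listed sample, not used here.

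Symbols, coordinates and transcript sequences came from GENCODE M21 (GRCm38), which matched 47224 of 47729 IDs. Counts were rounded to whole numbers (totals changed by at most 0.00866%), filtered with filterByExpr (17365 genes), scaled with TMM and tested two-sided with edgeR 4.0.16 (R 4.3.3) robust quasi-likelihood F tests without covariates, adjusted by Benjamini-Hochberg over all tested genes. The test had been chosen for counts, and the table holds estimated ones. Standard errors were taken as |log2 fold change|/√F. Nuclear copies were found with blastn (BLAST 2.17.0) at 95% identity over at least 50 bases of a transcript. Each anticodon shown is the only match between bases 18 and 40 of its tRNA that follows a pyrimidine and precedes a purine. Within-library ratios, shares and per-length levels use the deposited values before rounding.

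The members, lists and tests were chosen with earlier results of these data known. Genes named are all 37 members, the nuclear copies with a mean of at least 100 counts, and from each of 10 nuclear gene lists up to 2 genes in each direction with the smallest p under 0.05; 10 marker lists describe cell types. Alternatives were DESeq2 1.42.0, limma-voom (limma 3.58.1), RLE scaling, scaling without mitochondrial genes, no filter, a mean of at least 1 CPM, a replicate block, an adjusted p of 0.1, and omission of libraries; for shares, counts of protein-coding and mitochondrial genes alone were a further one. On simulated counts for this comparison (17365 genes), edgeR recovered 40% of 100 genes changed by 1 and 89% of 100 changed by 2 on the log2 scale, with 10 false calls.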

Additional observations from a re-analysis of the deposited data

How the results depend on the processing

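Over all genes edgeR called 0; DESeq2 called 644, edgeR without a filter called 38, leaving out both libraries numbered 3 (the joint omission) gave 119, an adjusted p under 0.1 gave 82, and leaving out single libraries gave 0 to 230, the highest without control replicate 3. Of the tRNAs, 0 were called by edgeR, 2 by DESeq2 (mt-Ti and mt-Tr), 2 in the joint omission (mt-Tq and mt-Tm), and 0 to 2 when single libraries were left out. No setting listed here called an mRNA or rRNA. Median log2 fold changes ranged from −0.035 to 0.12 for mRNAs, 0.57 to 1.32 for rRNAs and 0.10 to 0.57 for tRNAs when single libraries were left out. Signs turned in the joint omission for mt-Tl1 (0.42), mt-Nd1 (0.11), mt-Tk (0.65), mt-Atp8 (0.034), mt-Atp6 (0.097), mt-Nd5 (0.043), mt-Nd6 (0.063), mt-Te (0.16), mt-Cytb (0.096) and mt-Tt (0.61). They also turned for mt-Tk with limma-voom (0.051), and for mt-Cytb without a filter (0.024) and at a mean of at least 1 CPM (0.0019). Leaving out single libraries gave −0.33 to 0.28 for mt-Tl1, −0.11 to 0.075 for mt-Nd1, −0.035 to 0.13 for mt-Nd2, −0.0057 to 0.25 for mt-Co1, −0.41 to 0.60 for mt-Tk, −0.13 to 0.070 for mt-Atp6, −2.54e-06 to 0.14 for mt-Nd4l, −0.0011 to 0.14 for mt-Nd4, −0.20 to 0.097 for mt-Te, −0.058 to 0.093 for mt-Cytb and −0.88 to 0.45 for mt-Tt. The cause was not tested. The share of the pool on protein-coding and mitochondrial genes alone is the same by construction and was not run. The difference in the pool share of mt-Atp6 was −0.42 percentage points and −0.79 with the copies added. Adding the copies to the counts and scaling without mitochondrial genes and their copies, both chosen after seeing the data, each called 0 genes. Deviations of same-numbered libraries correlated at −0.116, −0.225 and 0.046, and those of differently numbered ones at −0.242 to 0.299. With 3 libraries per group this cannot settle whether replicate numbers pair the libraries. The replicate block called 0 genes, with 0.054 for mt-Tk. Low counts limit mt-Tf, mt-Tv, mt-Tk and mt-Tt, which had 10.5 to 325.2 counts per library.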
